A study of Arabidopsis thaliana with 24 samples.

Results

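Class III peroxidases are a large gene family of land plants, and 60 of its Arabidopsis thaliana loci were examined here. A locus was measured if the array carried a feature annotated to that gene and no other, and the brightest such feature was to stand for it. This held for 56 loci, each with exactly 1 feature, among 16512 loci with a feature of their own. AT1G05240, AT1G05250, AT1G14540 (PER4) and AT5G06720 (PA2) had none and were not analysed here.

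The enzymes of this family are secreted haem proteins that work in the cell wall and the vacuole. They use hydrogen peroxide to oxidise phenolic compounds, which polymerises lignin and cross-links wall proteins and polysaccharides and so stiffens the wall. In another reaction cycle they release reactive oxygen species that can loosen the wall, and members are known for roles in root hair growth, the Casparian strip of the root endodermis, vascular lignin and defence.

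Plants of the reference accession Col-0 and of the mutant rpt2-3a were grown in hydroponic culture in short days of 8 h light and 16 h dark, for 5 weeks with all nutrients supplied. They then stayed on that medium (normal sulfur) or were moved for 5 days to a sulfur-deficient one. RPT2 is an ATPase of the proteasome's regulatory particle, and the labels give of the mutant no more than its allele name. Rosettes and roots were collected apart, so organ, genotype and sulfur supply made 8 groups of 3 one-colour Affymetrix arrays, which the design text calls biological replicates. The deposited values were read as log2 expression, and their median per array was 4.03 to 4.14 in rosettes and 4.47 to 4.55 in roots. The organ labels were checked with marker genes: the mean of 4 photosynthesis genes was 9.98 to 10.21 on rosette arrays and 3.05 to 4.26 on root arrays, and the mean of the root hair expansins EXPA7 and EXPA18 was 1.97 to 2.45 in rosettes and 6.76 to 7.38 in roots. The endodermis markers CASP1 and CASP2 were not analysed here. Each test was a two-sided limma fit over all 28583 features, and a gene passed where its p, adjusted by Benjamini-Hochberg over those features, was under 0.05.

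Most of the 56 measured class III peroxidase genes read higher in roots than in rosettes in this data set. For 37 of the 56 members the lowest of the 12 root arrays lay above the highest of the 12 rosette arrays, for 4 the rosette arrays lay above all root arrays, and for 15 the organs overlapped. Among all features these shares were 30.9% with roots above and 14.1% with rosettes above. A root array had 36 to 39 members above its own median, a rosette array 8 to 10. The median member stood at 6.0 to 6.36 on root arrays and at 2.36 to 2.73 on rosette arrays. Whole organs were extracted, so more cells that express a gene and more RNA per cell cannot be told apart.

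**Figure D1:**
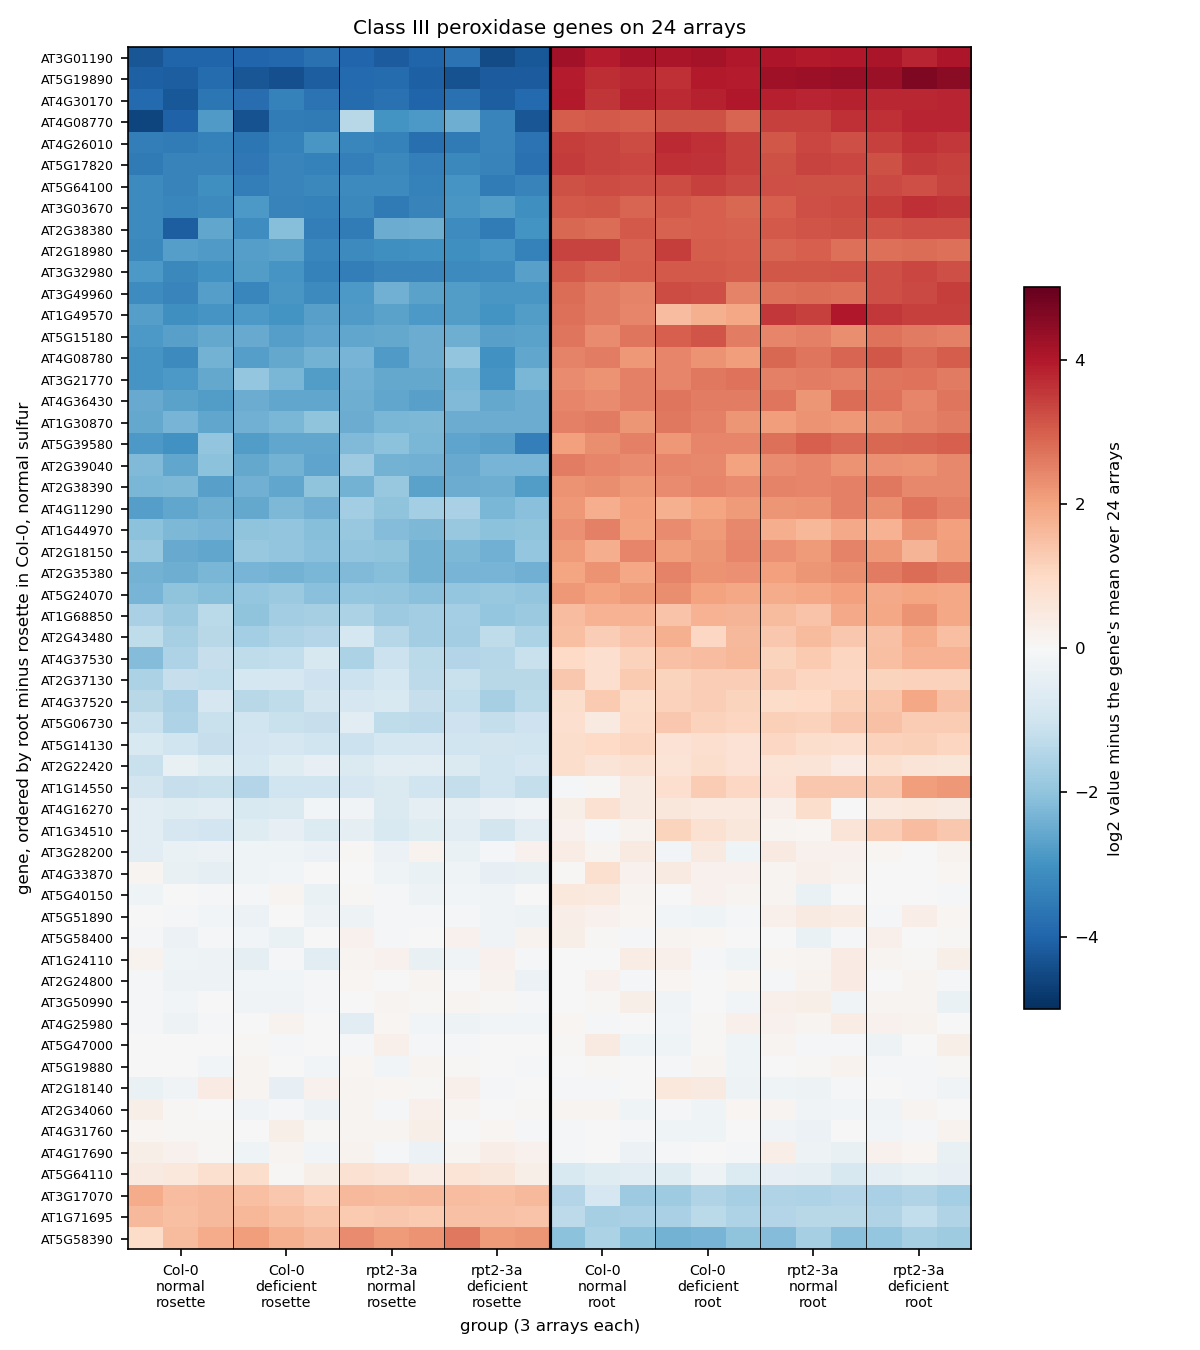
Log2 value of each of the 56 genes (rows) on each of the 24 arrays (columns, 3 per group) minus the gene's mean over all arrays, as colour, with genes ordered by their root minus rosette difference in Col-0 at normal sulfur. The block of 37 genes with every root array above every rosette array fills the upper part, and the 4 genes with every rosette array above every root array form the bottom rows.

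Between roots and rosettes of Col-0 at normal sulfur, 41 members passed as higher in roots and 4 as lower. Of all features, 63.4% passed in this comparison, 43.3% higher and 20.1% lower, so a pass alone was common. The size differed more: the median member difference was 2.72 on the log2 scale and the median over all features 0.21. The counts were 38 higher and 5 lower in Col-0 under deficiency (63.7% of all features passed, 43.9% higher and 19.8% lower), 40 and 5 in rpt2-3a at normal sulfur (62.5%, with 42.7% higher and 19.8% lower), and 39 and 4 in rpt2-3a under deficiency (61.7%, with 41.8% higher and 19.9% lower). Across the 4 comparisons 38 members were higher in roots every time, 4 were lower every time, and 9 passed in none. The organ difference was at least 4 log2 units for 26 members, AT5G24070 being the least of them at 4.26, and the next one, AT1G68850, stood at 3.27.

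The largest organ difference belonged to AT3G01190. Its root arrays read 10.43, 10.16 and 10.35 and its rosette arrays 1.95, 2.23 and 2.24 in Col-0 at normal sulfur. No array of one organ came near the other, and the difference was 8.17 ± 0.15 (SE, 289-fold on the assumption of base 2, adjusted p 2.248e-22). Over all groups its 12 root arrays kept between 10.07 and 10.43, and the 4 root group means spanned 0.12. AT5G19890 followed at 7.81 ± 0.12 (adjusted p 1.509e-23), with a lowest, median and highest value of 9.99, 10.40 and 11.00 in roots against 1.93, 2.20 and 2.47 in rosettes. AT4G30170 differed by 7.71 ± 0.14 (adjusted p 2.874e-22), and its 4 root group means lay within 0.06 of each other. These 3 genes were below the array median on every rosette array.

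A further 5 genes completed the 8 largest differences. AT4G08770 (Prx37), a gene whose overexpression is known to stunt plants, differed by 6.86 ± 0.41. Its root arrays ran from 9.74 to 10.65 with a median of 10.12, but its rosette arrays scattered from 2.24 to 5.43, the widest rosette spread shown here. AT4G26010, which acts in root hair growth, differed by 6.82 ± 0.15, with 9.03 to 9.63 in roots and 2.13 to 2.99 in rosettes. AT5G17820 differed by 6.82 ± 0.13, AT5G64100, tied to root hair growth at low temperature, by 6.42 ± 0.12, and AT3G03670 by 6.24 ± 0.12. In all 5 the organs were separated without overlap.

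**Figure D2:**
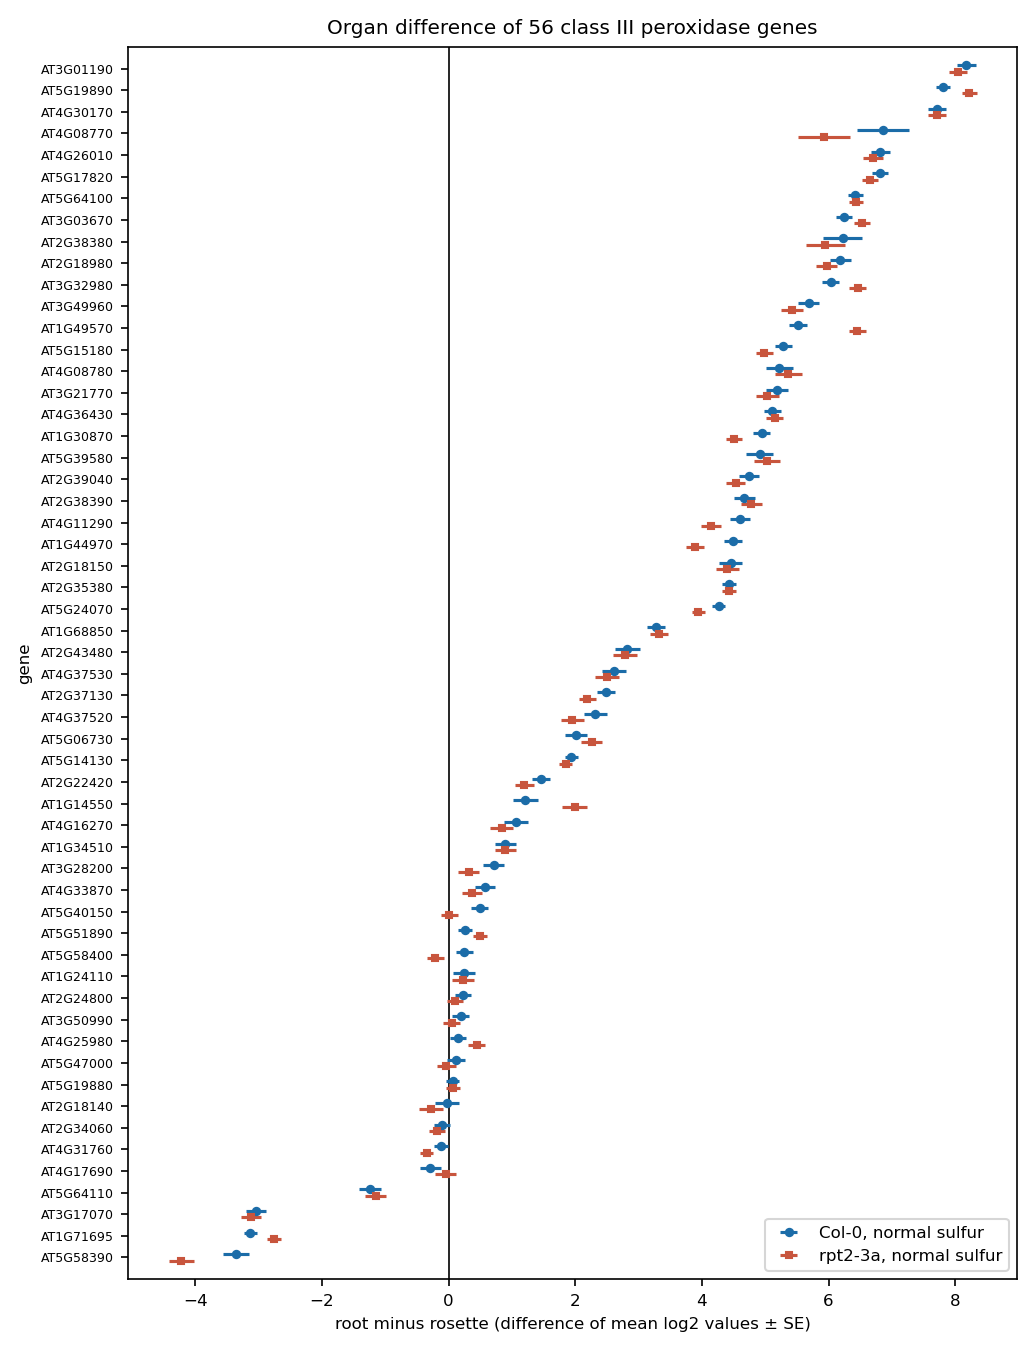
Root minus rosette difference of mean log2 values (x axis, ± SE) for each of the 56 genes (y axis), in Col-0 (circles) and rpt2-3a (squares) at normal sulfur. In Col-0 the differences run from -3.36 for AT5G58390 to 8.17 for AT3G01190, with 26 genes at 4 or more.

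The family also held 4 genes with the opposite organ pattern. AT5G58390 read 5.14, 5.82 and 6.08 in Col-0 rosettes at normal sulfur and 2.16, 2.64 and 2.17 in roots. Roots were lower by every array, and the difference was -3.36 ± 0.20 (10.2-fold lower, adjusted p 6.945e-13). It was also lower in roots in the other 3 comparisons, at -4.06 in Col-0 under deficiency, -4.22 in rpt2-3a at normal sulfur and -4.12 in rpt2-3a under deficiency. AT1G71695 read 9.15 to 9.50 in rosettes and 6.19 to 6.62 in roots, a difference of -3.13 ± 0.11 in Col-0 at normal sulfur (adjusted p 1.075e-17). It was above the array median on all 24 arrays, so it was present in both organs. AT3G17070 read 5.04 to 5.73 in rosettes and 2.05 to 3.05 in roots (-3.04 ± 0.16, adjusted p 4.988e-14). AT5G64110 read 3.60 to 4.42 in rosettes and 2.72 to 3.27 in roots (-1.24 ± 0.17, adjusted p 9.426e-07), values close to or below the array medians throughout.

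Members with a known role differed in their organ pattern. AT4G11290 and AT1G44970, which act with other peroxidases in lignifying the Casparian strip, were higher in Col-0 roots at normal sulfur by 4.60 ± 0.16 and 4.49 ± 0.14. AT5G39580, tied like AT5G64100 to root hair growth at low temperature, was higher by 4.91 ± 0.21, with 8.14 to 9.09 on root arrays and 2.68 to 4.13 on rosette arrays. AT2G22420, linked to lignified tissue, was higher by 1.46 ± 0.15, with 4.60 to 5.10 in roots and 3.10 to 3.84 in rosettes. Of the other members with a role in lignin, AT3G32980 was higher by 6.03 ± 0.13, AT3G21770 by 5.18 ± 0.18 and AT4G37520 by 2.32 ± 0.18. AT1G71695, also of this role, was lower (-3.13 ± 0.11), and AT5G51890 is described below. AT2G37130, linked to defence, was above the array median in both organs and higher in roots by 2.49 ± 0.14.

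AT3G50990 and AT4G16270, known from organs that were not sampled, stood low. AT3G50990 (peroxidase 36), which acts in seed coat mucilage release, read 2.01 to 2.64 in roots and 2.15 to 2.48 in rosettes and did not pass between organs (0.19 ± 0.13, adjusted p 0.219). AT4G16270, which with AT1G44970 acts in the tapetum of the anther, read 2.45 to 3.35 in roots and 1.70 to 2.34 in rosettes, below the array median on all 24 arrays. It passed as higher in roots in the 4 organ comparisons on the deposited values, by 1.06 ± 0.19 in Col-0 at normal sulfur. AT1G44970 did not stand low in roots, where it read 5.70 to 6.55 and was above the array median on all 12 arrays. In all, 14 members never exceeded an array median, AT2G18140, AT5G19880 and AT5G58400 among them.

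AT5G51890, linked to lignin of tracheary elements, was above the array median on all 24 arrays. Its root arrays read 5.25 to 5.92 and its rosette arrays 5.20 to 5.51, so the organs overlapped. The difference in Col-0 at normal sulfur was 0.26 ± 0.11 (adjusted p 0.04097). It was -0.11 when every array was centred on its median and -0.0085 after quantile normalization, so its direction depended on the scaling, and the call held in 2 of the 6 fits that left out 1 array. AT5G40150 (0.49 ± 0.13), AT4G33870 (0.57 ± 0.16) and AT3G28200 (0.71 ± 0.16) were the other members with the smallest differences to pass. In Col-0 at normal sulfur none of these passed under either scaling, and they read 2.40 to 3.26, 2.48 to 3.72 and 4.25 to 5.29 over both organs.

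The choice of scaling bears on small organ differences because the array medians differ between organs. With arrays centred on their medians, the median difference over all features in Col-0 at normal sulfur became -0.16, and the split over all features moved from 12368 higher and 5753 lower to 7692 higher and 10974 lower. After quantile normalization it was 9378 higher and 7982 lower, with a median of 0.03. For the members the split went from 41 higher and 4 lower to 37 and 8 with centring and 37 and 6 with quantile normalization. In the 4 organ comparisons under the 3 scalings, 36 members were higher in roots each time and the same 4 genes lower each time. AT4G25980, AT5G40150 and AT5G51890, 3 members with overlapping organs, passed in opposite directions under different scalings or groups. Signs of other small differences turned as well without a pass in both directions: in Col-0 at normal sulfur AT5G58400 went from 0.25 to -0.13 with centring, AT1G24110 from 0.24 to -0.13 and AT5G19880 from 0.06 to -0.31.

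Class III peroxidase genes often lie side by side. By the gene order of RefSeq, with consecutive locus numbers, the 60 loci hold 10 such pairs, and both genes were measured in 7. Some pairs had a like organ pattern in Col-0 at normal sulfur: AT4G37520 and AT4G37530 were higher in roots by 2.32 ± 0.18 and 2.61 ± 0.19. AT2G38380 and AT2G38390 were higher by 6.22 ± 0.31 and 4.67 ± 0.17, and AT4G08770 and AT4G08780 by 6.86 ± 0.41 and 5.22 ± 0.21. Other pairs had unlike patterns. AT5G64100 was higher in roots by 6.42 ± 0.12 while its neighbour AT5G64110 was lower by every array (-1.24 ± 0.17). AT5G19890 was higher by 7.81 ± 0.12, and AT5G19880 read 2.02 to 2.43 in roots and 2.10 to 2.38 in rosettes (0.06 ± 0.10, adjusted p 0.618). AT2G18150 was higher by 4.46 ± 0.18 and AT2G18140 differed by -0.02 ± 0.19 (adjusted p 0.934). AT5G58390 was lower in roots (-3.36 ± 0.20), and AT5G58400 differed by 0.25 ± 0.13 (adjusted p 0.111). The difference between the genes of a pair was not tested, and whether a feature also binds transcripts of a near-identical copy was not checked.

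**Figure D3:**
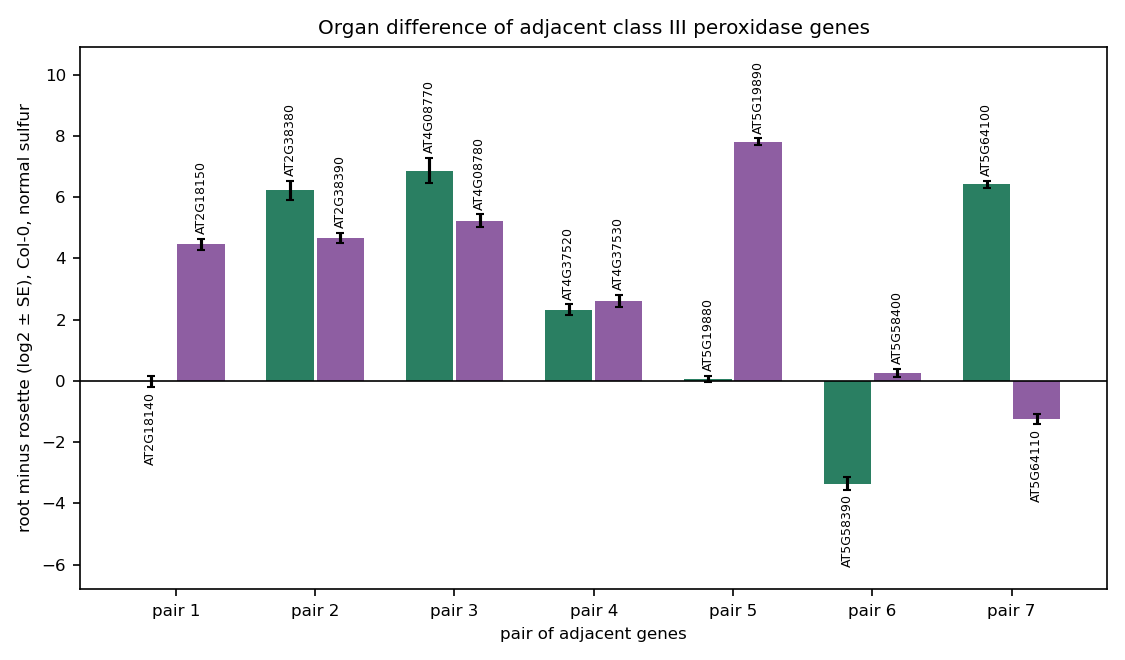
Root minus rosette difference (y axis, log2 ± SE, Col-0 at normal sulfur) for the 7 pairs of adjacent genes (x axis) with both genes measured, the lower locus number on the left. In pairs 2, 3 and 4 both bars are above 2, and in pairs 1, 5, 6 and 7 one gene is near 0 or has the opposite sign.

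Gene lists examined beside the family, of wall oxidation and of other processes, had few features. Of 74 loci on lists of NADPH oxidases, monolignol synthesis, laccases, Casparian strip, root hair genes, ascorbate peroxidases and catalases, 11 were measured. In Col-0 at normal sulfur, 9 of the 11 were higher in roots and 2 lower, where 43.3% of all features were higher and 20.1% lower. Of the 9, EXPA7 and EXPA18 had served as root markers above, and GSO1 and AT1G61590 came from the Casparian strip list. Their direction was to be foreseen from the choice of lists, so the count is no result of its own. The NADPH oxidase genes AT4G25090 and AT4G11230, of the family that supplies superoxide to the wall, were higher in roots by 5.78 ± 0.09 and 5.08 ± 0.12. The laccase genes AT5G01050 and LAC16, which also oxidise monolignols, were higher by 2.82 ± 0.18 and 2.07 ± 0.21, and HCT, an enzyme of monolignol synthesis, by 1.47 ± 0.10. GSO1, a receptor needed for an intact Casparian strip, was higher by 4.01 ± 0.13. TAPX, a chloroplast ascorbate peroxidase gene of another peroxidase class, was lower in roots at -6.03 ± 0.11. SAPX, of the same class, was lower there (-0.35 ± 0.11) but did not pass in the other 3 organ comparisons, at -0.10, -0.13 and, in deficient rpt2-3a, 0.11. Of these 11 genes, TAPX alone passed a sulfur or genotype comparison within an organ. It was lower in rpt2-3a, at -0.68 ± 0.12 in roots under deficiency (adjusted p 0.01881) and -0.61 ± 0.11 in rosettes at normal sulfur (adjusted p 0.01804). The deficient root arrays of TAPX read 3.59 to 4.04 in Col-0 and 3.09 to 3.16 in rpt2-3a, all below the array medians. Between organs, the sulfur response of HCT in Col-0 was higher in roots by 0.64 ± 0.14 (adjusted p 0.04635, 0.469% of all features passed).

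Genotype and sulfur supply moved few members. AT1G49570 passed in more of these comparisons than any other member. In Col-0 roots it read 7.82, 7.64 and 7.49 at normal sulfur and 6.61, 6.81 and 6.98 under deficiency. In rpt2-3a roots it read 8.60, 8.45 and 9.04 at normal sulfur and 8.59, 8.48 and 8.45 under deficiency. Every mutant root array was above every Col-0 root array, and the deficient Col-0 arrays were the lowest of all. In rosettes its 12 arrays lay between 2.00 and 2.36, below the array medians, in all 4 groups.

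In roots at normal sulfur, AT1G49570 was higher in rpt2-3a than in Col-0 by 1.05 ± 0.15 (2.07-fold, adjusted p 0.006185). It was the one member that passed, where 0.577% of all features did, and without replicate 1 of the mutant roots at normal sulfur 2 members passed. Under deficiency the difference was 1.71 ± 0.15 (3.26-fold, adjusted p 0.0001228). Both calls held in each of the 6 fits that left out 1 array and under every other setting tried. The genotype difference was larger in roots than in rosettes by 0.94 ± 0.19 at normal sulfur (adjusted p 0.01676, 1.32% of all features passed) and by 1.71 ± 0.19 under deficiency (adjusted p 0.0001096, 0.465% passed). The first of these missed the threshold without replicate 1 of the Col-0 rosettes at normal sulfur (0.86, adjusted p 0.05496) and when only the groups compared were fitted (adjusted p 0.0812). No other member passed in these comparisons of organs.

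**Figure D4:**
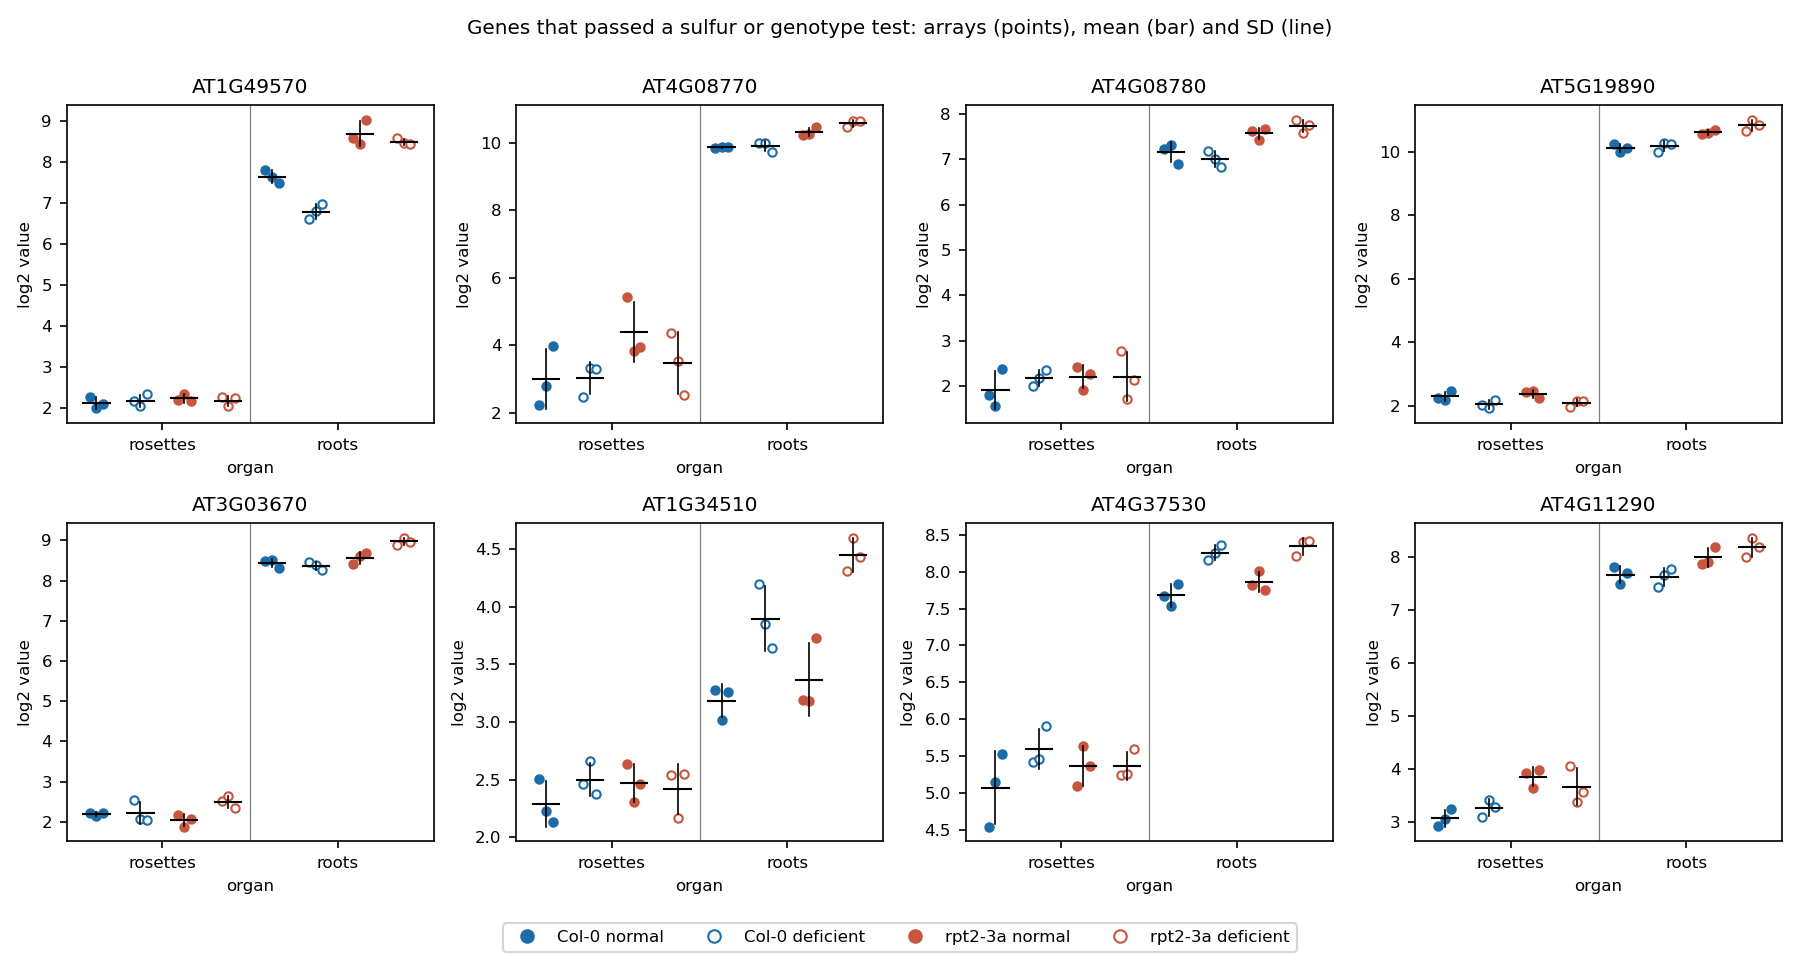
Log2 values (y axis) of the 8 genes that passed a sulfur or genotype test, by organ and group (x axis). Points are arrays, bars the mean and vertical lines the SD of 3 arrays, and filled points normal and open points deficient sulfur. For AT1G49570 the 6 mutant root arrays, at 8.45 to 9.04, lie above the 6 Col-0 root arrays, at 6.61 to 7.82.

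In roots under deficiency 5 members passed as higher in rpt2-3a and none as lower, where 0.77% of all features passed and 0.493% passed as higher. Beside AT1G49570 these were the adjacent genes AT4G08770 and AT4G08780, AT5G19890 and AT3G03670. AT4G08770 read 10.47, 10.65 and 10.65 in the mutant and 10.00, 10.00 and 9.74 in Col-0. The groups did not overlap, and the difference was 0.68 ± 0.11 (1.6-fold, adjusted p 0.01244). AT4G08780 read 7.85, 7.58 and 7.76 against 7.18, 7.0 and 6.83 (0.73 ± 0.13, adjusted p 0.02542). AT5G19890 read 10.65, 11.0 and 10.84 against 9.99, 10.27 and 10.25 (0.66 ± 0.12, adjusted p 0.02333). AT3G03670 read 8.88, 9.07 and 8.97 against 8.46, 8.38 and 8.27 (0.60 ± 0.11, adjusted p 0.02387). In each of them all 3 mutant arrays were above all 3 Col-0 arrays.

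These 4 calls rested on single arrays in part. Without replicate 3 of the deficient Col-0 roots, or without replicate 2 of the deficient mutant roots, AT1G49570 alone passed. Without replicate 3 of the deficient mutant roots 2 members passed, and without replicate 1 or replicate 2 of the deficient Col-0 roots 3 did. The 4 differences themselves stayed between 0.55 and 0.82 whichever array was left out. With all 24 arrays in one fit, where the scatter of the rosettes enters the error, AT4G08770 (adjusted p 0.617) and AT4G08780 (adjusted p 0.113) did not pass.

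The same 5 genes were measured at normal sulfur on arrays of other plants. There AT4G08770 was 0.46 ± 0.11 higher in the mutant roots (adjusted p 0.09451), AT5G19890 0.50 ± 0.12 (adjusted p 0.09951) and AT4G08780 0.42 ± 0.13 (adjusted p 0.2748). AT3G03670 read 8.40, 8.62 and 8.69 in the mutant and 8.49, 8.50 and 8.31 in Col-0 (0.14 ± 0.11, adjusted p 0.7989). AT5G39580 (0.57 ± 0.13) and AT1G14550 (1.00 ± 0.23) missed the threshold at adjusted p 0.07997 each. AT1G14550 read 4.44, 5.07 and 5.04 in the mutant and 3.64, 3.75 and 4.16 in Col-0, without overlap. AT5G39580 differed by 0.58 ± 0.13 under deficiency as well (adjusted p 0.06239).

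More members than those that passed were separated in this direction. In roots under deficiency, 16 members had all mutant arrays above all Col-0 arrays and 2 had them below, or 28.57% and 3.571%, where 7.44% and 7.67% of all features did. At normal sulfur the numbers were 11 and 2, against 7.39% and 6.3% of all features. The median member difference was nonetheless small, 0.07 under deficiency and 0.02 at normal sulfur, against -0.01 and 0.01 over all features. Over the 56 members the genotype differences at the 2 supplies, which share no array, had a Pearson correlation of 0.786 and a Spearman correlation of 0.70, and 41 had the same sign. Over all features the Pearson correlation was 0.403, and 73.21% of members and 56.62% of all features had the same sign. The root markers differed by 0.08 (EXPA7) and 0.12 (EXPA18) under deficiency and by -0.27 and -0.05 at normal sulfur, and none passed. The 4 photosynthesis markers differed by -0.47 to -0.25 in roots under deficiency and by -0.21 to 0.61 at normal sulfur, and none passed. The part of the root and photosynthesis markers in the result was not tested.

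**Figure D5:**
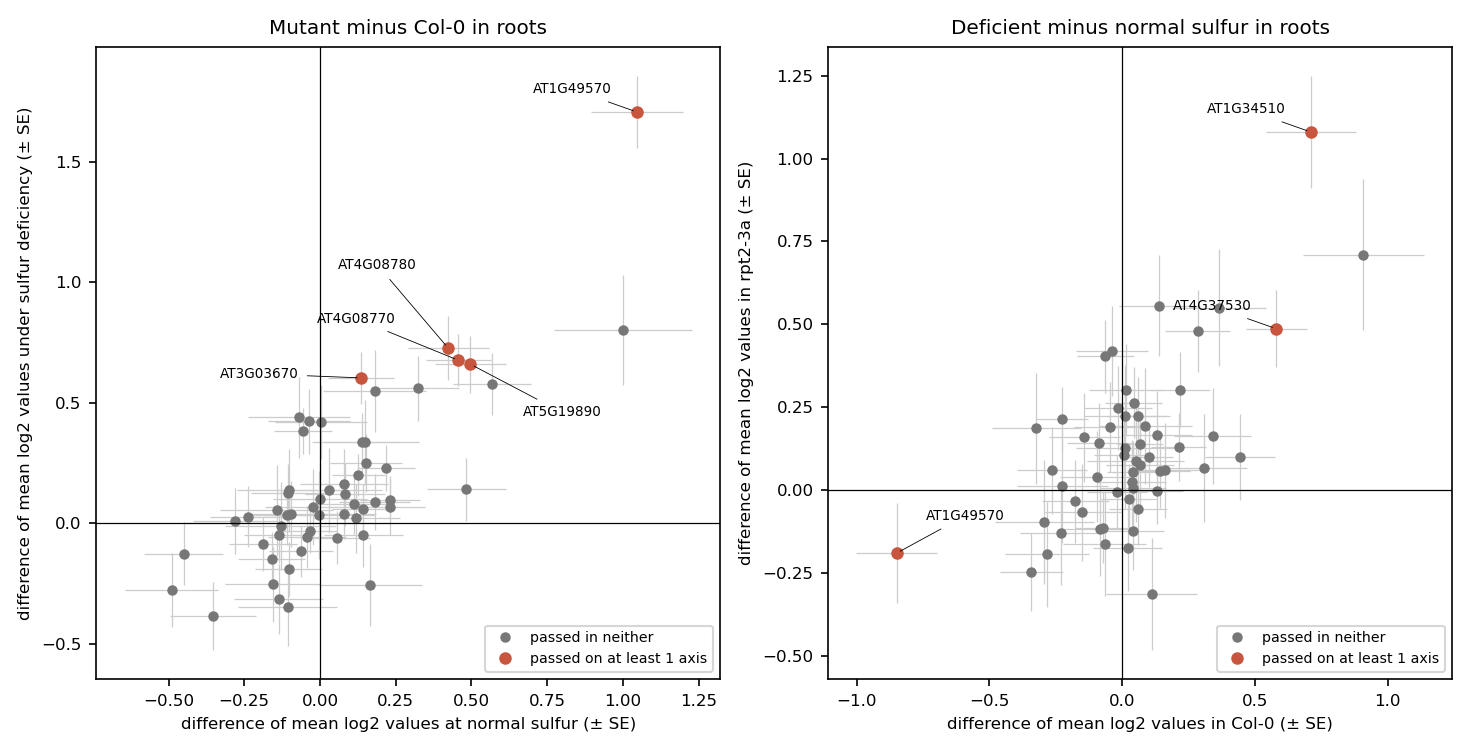
Left, rpt2-3a minus Col-0 in roots at normal (x axis) and deficient (y axis) sulfur. Right, deficient minus normal sulfur in roots of Col-0 (x axis) and rpt2-3a (y axis). Each point is 1 of 56 genes, as a difference of mean log2 values ± SE, with genes that passed on at least 1 axis labelled. AT1G49570 lies apart at 1.05 and 1.71 on the left, and AT1G34510 is highest on the right panel's y axis at 1.08.

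Sulfur deficiency changed 2 members in Col-0 roots, where 0.875% of all features passed. AT1G49570 fell by 0.85 on the log2 scale (SE 0.15, adjusted p 0.01556) from the values given above, without overlap. AT4G37530 rose from 7.67, 7.53 and 7.84 to 8.16, 8.25 and 8.37, by 0.58 ± 0.12 (1.5-fold, adjusted p 0.03327). Again every deficient array lay outside the range of the normal ones. Neither call was stable to leaving out arrays. Without replicate 1 or replicate 2 of either Col-0 root group no member passed, with adjusted p from 0.0593 to 0.0873 for AT1G49570 and from 0.0626 to 0.137 for AT4G37530. Without replicate 3 of the deficient Col-0 roots AT4G37530 did not pass either (adjusted p 0.128). It also missed the threshold with all 24 arrays in one fit (adjusted p 0.199), in which AT1G14550 (0.91, adjusted p 0.01994) and AT1G34510 (0.71, adjusted p 0.02826) passed.

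In rpt2-3a roots 1 member passed for sulfur, where 0.143% of all features did. AT1G34510 rose from 3.19, 3.18 and 3.73 to 4.31, 4.60 and 4.43, by 1.08 ± 0.17 (2.11-fold, adjusted p 0.02318). All deficient arrays were above all normal ones, yet of the 12 root arrays of this gene just 1 exceeded its array's median. The call was lost in 5 of the 6 fits that left out 1 array, with adjusted p from 0.0506 to 0.136, and kept without replicate 3 of the normal mutant roots (1.26, adjusted p 0.007907). In Col-0 roots the same gene read 3.28, 3.02 and 3.26 at normal and 4.20, 3.85 and 3.64 at deficient sulfur (0.71 ± 0.17, adjusted p 0.08556). AT4G37530 read 7.82, 8.01 and 7.75 and then 8.21, 8.41 and 8.42 in the mutant (0.49 ± 0.12, adjusted p 0.1409). Both genes were thus higher under deficiency in both genotypes by every array, with 1 pass each.

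When the sulfur responses of the genotypes were compared directly in roots, no member passed, where 0.0105% of all features did, and 4 members had an unadjusted p under 0.05. The smallest adjusted p belonged to AT5G14130 (0.44 ± 0.14, adjusted p 0.8299), AT1G49570 (0.66 ± 0.21, adjusted p 0.8432) and AT3G03670 (0.47 ± 0.15, adjusted p 0.8432). For AT1G49570 the 95% interval of that difference ran from 0.20 to 1.12. The fall of AT1G49570 in Col-0 is therefore not shown to differ from the mutant's change of -0.19. Over the members the sulfur changes in roots of the 2 genotypes, which share no array, had a Pearson correlation of 0.643 and a Spearman correlation of 0.477, and 39 of 56 had the same sign (69.64%, against 55.55% of all features). The Pearson correlation over all features was 0.341.

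The sulfur responses of roots and rosettes differed for 1 member in each genotype. In Col-0 it was AT1G49570, at -0.91 ± 0.19 for root minus rosette (adjusted p 0.03126, 0.469% of all features passed). In rpt2-3a it was AT1G34510, at 1.13 ± 0.23 (adjusted p 0.02825, 0.399% passed), whose rosette arrays read 2.13 to 2.66. When only the groups compared were fitted, neither passed (adjusted p 0.0766 and 0.0614). Leaving out 1 array at a time, the call of AT1G49570 was lost in 7 of 12 fits, with replicates 2 and 3 of the normal and replicate 3 of the deficient Col-0 rosettes and replicates 1 and 2 of both Col-0 root groups. The call of AT1G34510 was lost in 6 of 12 fits, with adjusted p up to 0.094. These left out replicate 1 of the normal or replicate 2 of the deficient mutant rosettes, replicate 1 or 2 of the normal mutant roots, or replicate 2 or 3 of the deficient mutant roots. Without replicate 3 of the normal mutant rosettes 3 members passed, and without replicate 1 of the deficient mutant roots 2 did.

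In rosettes no member passed for sulfur in either genotype. In Col-0, 0.129% of all features passed, and 5 members had an unadjusted p under 0.05. The smallest were AT3G17070 (-0.34 ± 0.11, adjusted p 0.3741), AT2G37130 (0.40 ± 0.14, adjusted p 0.4392) and AT2G34060 (-0.31 ± 0.11, adjusted p 0.4472). In rpt2-3a, 1.55% of all features passed, and 4 members had an unadjusted p under 0.05, led by AT3G03670 (0.45 ± 0.14, adjusted p 0.1517), AT5G39580 (-0.75 ± 0.25, adjusted p 0.1909) and AT4G37520 (-0.49 ± 0.19, adjusted p 0.2877). These counts of 0 were the same under every alternative setting. No member passed for the difference of sulfur responses between genotypes in rosettes (0% of all features passed, 4 members at an unadjusted p under 0.05), and the smallest adjusted p were those of AT2G37130 (-0.63 ± 0.20, adjusted p 0.3568), AT4G17690 (0.54 ± 0.19) and AT1G30870 (-0.39 ± 0.17). AT2G37130 read 4.73, 5.13 and 5.07 and then 5.41, 5.47 and 5.25 in Col-0, and 5.24, 5.44 and 5.01 and then 5.20, 4.90 and 4.90 in the mutant.

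Between the genotypes in rosettes, 1 member passed at normal sulfur, where 2.01% of all features did. The Casparian strip gene AT4G11290 read 2.92, 3.06 and 3.24 in Col-0 and 3.93, 3.65 and 3.98 in rpt2-3a, a difference of 0.78 ± 0.17 (1.72-fold, adjusted p 0.0312). The groups did not overlap, but all 6 values lay below the array medians. The call was lost in 5 of the 6 fits that left out 1 array (adjusted p 0.0568 to 0.139) and kept without replicate 3 of the Col-0 rosettes, where 2 members passed. In roots, where it read 7.45 to 8.37, AT4G11290 was higher in the mutant by 0.32 ± 0.14 at normal sulfur (adjusted p 0.4828). Under deficiency it was higher by 0.56, and neither root difference passed on the deposited values. The one under deficiency passed with trend and robust options (adjusted p 0.02222) and with dim features left out (adjusted p 0.0489). Rosette values of AT4G08770 were 5.43, 3.82 and 3.94 in the mutant and 2.24, 2.80 and 3.98 in Col-0. The difference of 1.39 ± 0.53 was larger than that of AT4G11290, but the groups overlapped and it did not pass (adjusted p 0.2348). AT5G58390, the gene with the largest excess in rosettes, read 6.58, 6.37 and 6.46 in the mutant and differed by 0.79 ± 0.21 (adjusted p 0.08457). Under deficiency no member passed (0.322% of all features, 4 members at an unadjusted p under 0.05), and the smallest adjusted p were those of AT2G37130 (-0.38 ± 0.14, adjusted p 0.3616), AT4G11290 (0.40 ± 0.17) and AT5G58390 (0.50 ± 0.21). Over the members the rosette genotype differences at the 2 supplies had a Pearson correlation of 0.269 and a Spearman correlation of 0.016, with 26 of 56 of the same sign (46.43%, against 54.5% of all features, whose Pearson correlation was 0.263). For the rosette sulfur changes of the genotypes the member correlations were -0.0024 (Pearson) and 0.017 (Spearman), with 24 of 56 of the same sign (42.86%, against 52.67% of all features, whose Pearson correlation was 0.139).

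Within an organ, then, most members stayed near one level. The 4 root group means of a member spanned 0.29 on the log2 scale in the median, and the 4 rosette group means 0.26. The median SD within groups was 0.16 in roots and 0.19 in rosettes, beside 0.16 and 0.17 over all features. A span of at least 1 occurred for 3 members in roots, AT1G49570, AT1G34510 and AT1G14550, and for AT4G08770 in rosettes. AT1G49570 had a span of 1.9 in roots and 0.11 in rosettes.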

How the data were processed

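Per the labels' protocols, total RNA was isolated with TRI Reagent, digested with DNase and labelled with biotin. The authors deposited 1 value for each of 28583 features on each array, read here as log2 from its range. The submitters' processing notes give Transcriptome Analysis Console as the tool. Not given in the sources used here are the log base, the genome build, the tool version and how values were summarised and normalized. Scan dates and batches were not given either, so batches could not be examined. Arrays give no read depth, and precision is set by how many arrays there were.

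Features were named through the platform annotation, in which 16746 carried 1 gene, 758 several and 11079 none, and 16601 matched the RefSeq genes of TAIR10.1, which supplied names and gene order. Arrays of a group correlated at r of 0.989 to 0.994.

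The lmFit, contrasts.fit and eBayes functions of limma 3.58.1 (R 4.3.3) were run on the deposited log2 values with no filter. Sulfur and genotype comparisons used the 12 arrays of an organ (8 residual degrees of freedom), and organ comparisons all 24 (16 residual degrees of freedom). Named members were the 8 largest and 8 smallest organ differences among members that passed, every member that passed another comparison, the 3 smallest p where none passed, adjacent pairs and members with a known role, with near misses given beside them. Some were chosen after their values were seen, such as AT1G14550. The members and gene lists were chosen with earlier results of these data known. Alternatives were median centring, quantile normalization, eBayes with trend and robust options, leaving out features with every group mean under 4.3, the replicate number as a block, other sets of arrays in the fit, and leaving out each array. The fits were also run on simulated data with few changed features, unlike the organ comparisons. The outcome is not given here.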

Additional observations from a re-analysis of the deposited data

Results flagged for a closer look

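Effects that differed between roots and rosettes by a test of the difference itself were found for 2 members. For AT1G49570 the genotype difference was larger in roots by 0.94 at normal sulfur (adjusted p 0.01676) and by 1.71 under deficiency (adjusted p 0.0001096), and its sulfur response in Col-0 was lower in roots, at -0.91 (adjusted p 0.03126). For AT1G34510 the sulfur response in rpt2-3a was higher in roots by 1.13 (adjusted p 0.02825). Both genes read below the array medians on all rosette arrays. Single outlying arrays were not tested for in the groups of 3.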

How the results depend on the processing

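Counts of members that passed moved by more than 1.5 times in these settings. With trend and robust options 2 members passed for sulfur in rpt2-3a roots and 5 for genotype in roots at normal sulfur. With dim features left out, 15 members dropped out of the test and 17522 features remained, and 4 passed for genotype in roots at normal sulfur, 8 in roots under deficiency and 3 for root minus rosette sulfur response in rpt2-3a. With all 24 arrays in one fit these were 2 for sulfur in rpt2-3a roots, 3 for genotype in roots and 2 for genotype in rosettes, both at normal sulfur. With only the groups compared, 0 passed for the organ difference of the sulfur response in either genotype and of the genotype effect at normal sulfur, and quantile normalization gave 0 for the sulfur response in rpt2-3a (AT1G34510, adjusted p 0.0514). Added genes such as AT1G14550, AT5G39580 and AT4G08770 were near the threshold in the deposited values. The causes were not tested.

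Deviations of same-numbered arrays correlated weakly, at -0.115 to 0.153 within roots, with 2 of 18 pairs over 0.1. They correlated at -0.105 to 0.242 within rosettes (3 of 18) and at -0.166 to 0.151 between organs (5 of 48). Col-0 rosettes at normal against deficient sulfur gave 0.242, 0.035 and 0.139. Roots against rosettes of Col-0 at normal sulfur gave 0.095, 0.062 and 0.061, and values of other group pairs lay on both sides of 0. Whether the replicate numbers pair the arrays was therefore not settled. With the replicate block 3 members passed for genotype in roots at normal sulfur (AT1G49570, AT1G14550 and AT5G39580), 7 passed in roots under deficiency (AT1G14550, adjusted p 0.03143, and AT5G39580, adjusted p 0.03769, beside the 5 others), and for sulfur in Col-0 roots AT1G14550 passed (adjusted p 0.01134) and AT4G37530 did not (adjusted p 0.0523).

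AT5G51890 turned from 0.26 to -0.11 with centring and -0.0085 with quantile normalization between organs of Col-0 at normal sulfur. The mean over several features of a locus gave no other value, since each member had 1 feature.

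Leaving out 1 array at a time, organ counts ran from 44 to 45, 41 to 45, 43 to 45 and 41 to 43, in the order of the report. Sulfur counts ran from 0 to 3 in Col-0 roots, 0 to 1 in rpt2-3a roots and stayed at 0 in rosettes. Genotype counts ran from 1 to 2 and 1 to 5 in roots at normal and deficient sulfur, 0 to 2 in rosettes at normal sulfur and stayed at 0 under deficiency. The differences of sulfur responses between genotypes stayed at 0. Organ differences ran from 0 to 1 (sulfur, Col-0), 0 to 3 (sulfur, rpt2-3a), 0 to 1 (genotype, normal) and stayed at 1 (genotype, deficient).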
